A study of Homo sapiens with 6 samples.

Results

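The secreted WNT proteins, their cell surface receptors and their secreted inhibitors were examined for 2 histone modifications in G401 cells. A gene was included when it was named as a WNT ligand, a Frizzled receptor (FZD), a secreted Frizzled-related protein (SFRP) or a Dickkopf inhibitor (DKK), or was FRZB, WIF1, LRP5 or LRP6, and had reads in the input. Of the 56638 genes counted, 41 were included, namely 19 WNT ligands, 12 receptors, 6 inhibitors that bind WNT proteins and 4 DKK inhibitors. All 41 names that fitted the rule had input reads. G401 is a malignant rhabdoid tumor cell line deficient in SMARCB1, a subunit of the SWI/SNF chromatin remodeling complex. SMARCB1 had 0 counts in both inputs, but 18839 genes had 0 counts in all 6 libraries, DVL3 of the WNT pathway among them, so a 0 in this table does not show a deletion. The cells were treated for 3 days with the solvent DMSO or with 3 µM MAK683, a compound that binds the EED subunit of Polycomb repressive complex 2 (PRC2) and so inhibits H3K27 methylation. Each arm was profiled by chromatin immunoprecipitation sequencing (ChIP-seq) of H3K27me3 and of H3K4me3 and by sequencing of the input chromatin. There was 1 library for each arm and antibody, so no difference between the arms has a replicate check and no p-value is given. The question was how the modifications over these genes differed between cells with and without PRC2 inhibition.

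WNT proteins are secreted, lipid-modified signals that bind Frizzled receptors, usually together with the coreceptor LRP5 or LRP6. In the canonical branch this stabilizes β-catenin, which then activates target genes with TCF and LEF factors, while other branches control cell polarity and calcium. SFRP proteins, FRZB and WIF1 bind the WNT protein outside the cell, and DKK proteins act on the LRP coreceptors. Many genes of WNT signaling lie in CpG islands and are known Polycomb targets in stem cells, where H3K27me3, the mark of PRC2, goes with silent genes and H3K4me3 marks active or poised promoters.

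Promoter sequence did not enter the choice of these genes, and most but not all of them were CpG-rich. In the 250 bases upstream of the start of the main transcript, read from GRCh37, the members held a median of 25 CG dinucleotides, against 18 over 18850 protein-coding genes. At least 10 CG were present in 36 of the 41 windows (87.8%), and in 71.4% of the windows of all protein-coding genes. The median was 29 for the WNT ligands, 30.5 for the receptors, 19 for the WNT-binding inhibitors and 12 for the DKK genes. Fewer than 10 CG were found at WNT5B, WNT8A, WNT8B, DKK2 and DKK4. The motif counted is the letters CG, which read the same on both strands. A count of CG describes these letters and not a bound factor or a methylated site.

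The windows of 4 genes with a called H3K4me3 change are printed. Counts are per gene, so no H3K4me3 was measured in the windows themselves. Those of SFRP2, DKK1 and FZD5 lie just outside the annotated span of the gene. At WNT16 and SFRP2 H3K27me3 was lower and H3K4me3 higher in MAK683, and DKK1 and FZD5 held at least 1000 H3K4me3 counts in DMSO and were called lower in MAK683. The 4 were chosen after their values were seen. Each sequence is the 250 bases before the transcript start on GRCh37, written 5′ to 3′ on the strand of the gene, with every CG in capitals.
WNT16 (chr7:120968804-120969053, plus strand): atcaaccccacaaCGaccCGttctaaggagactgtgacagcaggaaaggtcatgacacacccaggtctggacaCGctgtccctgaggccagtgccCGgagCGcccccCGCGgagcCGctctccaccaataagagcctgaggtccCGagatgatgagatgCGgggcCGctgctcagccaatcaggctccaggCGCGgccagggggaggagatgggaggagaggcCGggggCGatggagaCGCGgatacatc
SFRP2 (chr4:154710236-154710485, minus strand): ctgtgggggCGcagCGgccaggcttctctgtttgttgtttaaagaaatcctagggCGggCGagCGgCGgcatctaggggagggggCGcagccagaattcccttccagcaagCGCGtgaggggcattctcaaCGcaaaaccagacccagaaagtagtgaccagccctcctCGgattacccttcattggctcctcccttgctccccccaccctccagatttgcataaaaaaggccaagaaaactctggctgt
DKK1 (chr10:54073791-54074040, plus strand): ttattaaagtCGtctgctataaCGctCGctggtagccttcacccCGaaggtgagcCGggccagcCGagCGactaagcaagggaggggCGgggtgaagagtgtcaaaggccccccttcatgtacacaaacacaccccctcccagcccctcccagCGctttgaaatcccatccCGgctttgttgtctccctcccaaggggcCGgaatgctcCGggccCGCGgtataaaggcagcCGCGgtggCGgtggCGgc
FZD5 (chr2:208634631-208634880, minus strand): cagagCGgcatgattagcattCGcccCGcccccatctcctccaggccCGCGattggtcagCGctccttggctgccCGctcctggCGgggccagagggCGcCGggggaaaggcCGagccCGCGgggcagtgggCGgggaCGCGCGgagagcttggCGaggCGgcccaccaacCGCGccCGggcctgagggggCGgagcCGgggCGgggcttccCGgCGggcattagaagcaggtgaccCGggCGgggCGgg
The number of CG was 30 in FZD5, 18 in DKK1, 17 in WNT16 and 11 in SFRP2. The window of DKK1 also lies over the antisense gene PRKG1-AS1. How reads in overlaps were counted is not given. FZD4 and LRP6, with 25.6% and 36.7% of their spans free of other genes, had 7.51 and 10.1 input counts per kb. LRP5, with no overlap, had 28.5, and WNT2, with 24.5% free, had 15.2. Whether reads in overlaps were left out was not tested.

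Counts were deposited without replicates and without spike-in factors, at totals between 13308099 and 21281877 counts per library. A level is given as log2 of the modification over the input of the same arm, both in CPM (counts scaled to the total of each library), over the gene as it was counted. A change is log2 of the MAK683 count over the DMSO count minus the median of this value over all genes, so that 0 is the typical gene. The median itself was -0.44 for H3K27me3 and -0.13 for H3K4me3 in the counts as deposited. A fall or rise shared by all genes is therefore not visible in the changes. It is not visible in the levels either, since each library is scaled to its own total, so a level that is alike in both arms or higher in MAK683 does not show that the amount of the modification was kept. Intervals are exact 95% Clopper-Pearson intervals, and they cover counting error only. A gene was called lower or higher when its change was at least 0.32 on the log2 scale in either direction. Genes needed 100 counts in the 2 libraries compared, or in both inputs for levels.

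H3K27me3 in DMSO lay over some of the WNT ligands, Frizzled receptors and SFRP genes and was lower at the others. Of the 33 members with enough input, 9 (WNT2, WNT5A, WNT6, WNT7A, WNT16, FZD1, SFRP1, SFRP2 and SFRP5) had at least 2 times the input, and the share among all genes tested was 10.7%. Above input at all were 14 of the 33 members, against 27.3% of all genes. The median level of the members was -0.28 and that of all genes -0.75. By role, the count at 2 times input was 5 of 18 WNT ligands, 1 of 7 receptors, 3 of 6 WNT-binding inhibitors and 0 of 2 DKK genes. In MAK683, 6 of the 33 had at least 2 times the input (6.71% of all genes) and 13 were above it (28.5%), with a median of -0.45 against -0.56. WNT6, WNT16 and FZD1 had left the group at 2 times the input. With levels centred on the median of all genes, the median of the members became 0.47 in DMSO.

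**Figure D1:**
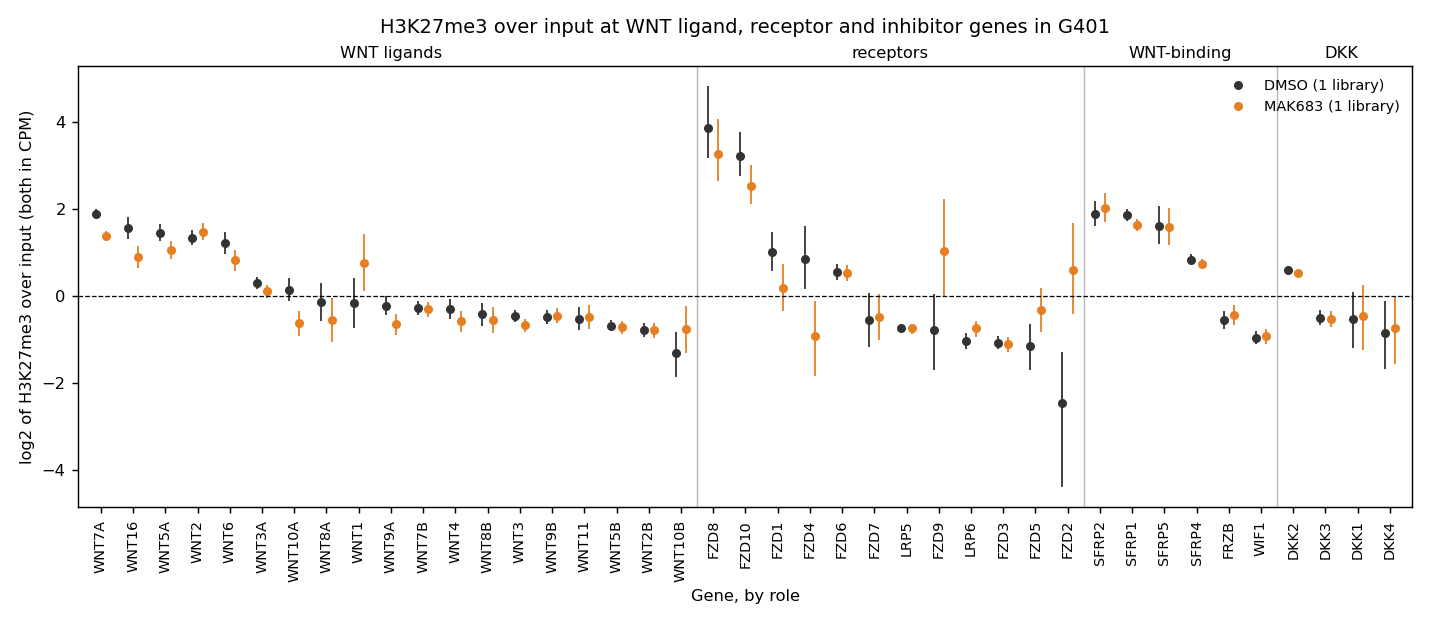
H3K27me3 over input, as log2 of the ratio of the CPM values, for each gene in DMSO and MAK683, with bars for the exact 95% interval of counting error. The genes at 2 times input or more in DMSO are 5 WNT ligands, 3 SFRP genes and FZD1, apart from FZD8 and FZD10, whose input was under 100 counts.

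WNT7A, a ligand of limb and nervous system development, had the highest H3K27me3 level among the WNT ligands. It counted 3436 H3K27me3 reads against 811 input reads in DMSO, which was 3.72 times the input. In MAK683 the counts were 1893 and 1063, or 2.61 times. The gene spans 63.8 kb on chromosome 3 (13857755 to 13921568, minus strand), so the count is spread over many kilobases. WNT16, a ligand known in bone, followed with 2.94 times the input in DMSO and 1.85 times in MAK683. WNT5A, the main ligand of the non-canonical branch, was at 2.75 and 2.08 times, and WNT2 at 2.53 and 2.80 times. Only 24.5% of the WNT2 span is free of other genes, since CFTR overlaps it.

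WNT6, which signals in epithelia, was at 2.32 times the input in DMSO and 1.77 times in MAK683. Its neighbor WNT10A starts 6.62 kb downstream on the same strand and was at 1.10 and 0.647 times. The intervals of the log2 levels in DMSO, from 0.97 to 1.47 for WNT6 and from -0.12 to 0.41 for WNT10A, did not overlap. WNT3 and WNT9B lie on opposite strands, with the outer bounds of their spans 0.047 kb apart. The windows before their main transcript starts lie further apart, at chr17:44896059-44896308 and chr17:44928699-44928948. Their levels in DMSO were close, at -0.45 (interval from -0.59 to -0.31) and -0.48 (from -0.64 to -0.32). WNT9B and WNT4, which act in succession in nephron formation, were both below the input, at 0.718 and 0.807 times. The levels of WNT2B, WNT5B, WNT7B, WNT8A, WNT8B, WNT10B and WNT11 were between 0.402 times (WNT10B) and 0.908 times (WNT8A). WNT3A, a canonical ligand of early development, was at 1.23 times, while WNT9A, 59.1 kb away from it, was at 0.854 times.

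Among the receptors, FZD8 and FZD10 stood out by their H3K27me3 over a small input. FZD8 had 246 H3K27me3 counts over 14 input counts in DMSO and 137 over 20 in MAK683, or 14.6 and 9.62 times the input. FZD10 had 389 over 36 and 217 over 54, or 9.30 and 5.81 times. Both genes are short, at 4.05 and 3.28 kb, and 70.4% of the FZD8 span is free of other genes. With fewer than 100 input counts they stayed out of the counts above. FZD1 had 138 H3K27me3 counts in DMSO (2.01 times the input) and 53 in MAK683 (1.14 times). FZD6 was at 1.47 and 1.43 times the input. LRP5 and LRP6, the coreceptors, were at 0.598 and 0.485 times in DMSO, below the input.

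SFRP1, SFRP2, SFRP4 and SFRP5 had more H3K27me3 than input in both arms, each library being scaled to its own total. SFRP2 (chromosome 4, 154701743 to 154710235, minus strand) had 3.71 times the input in DMSO, close to SFRP1 at 3.63 times, and the intervals of their log2 levels, from 1.61 to 2.19 and from 1.73 to 2.00, overlapped. SFRP5 was at 3.05 times and SFRP4 at 1.79 times. FRZB, which binds WNT proteins in cartilage, and WIF1 were below the input at 0.683 and 0.514 times. Of the DKK genes, DKK2 was at 1.52 times over a span of 362 kb, DKK3 at 0.706 times, and the H3K27me3 counts of DKK1 (39 in DMSO and 24 in MAK683) and DKK4 (24 and 21) were low.

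In MAK683, H3K27me3 over these genes was lower relative to all genes more often than higher. Of the 32 members with enough counts, 10 were called lower and 0 higher, against 13.4% lower and 14.2% higher among all genes. With a minimum of 10 counts in 1 library all 41 members entered, and 11 were lower and 4 higher (FZD2, FZD5, FZD7 and FZD9), against 19.8% and 20.1% of all genes. The 10 called lower were WNT5A, WNT7A, WNT8A, WNT9A, WNT10A, WNT16, FZD1, FZD8, FZD10 and SFRP2. The change was negative at 30 of the 32, and all 17 WNT ligands tested, 6 of 7 receptors and all 6 WNT-binding inhibitors were among them. The median change was -0.18 (on the log2 scale), with -0.22 for the WNT ligands, -0.16 for the receptors and -0.12 for the WNT-binding inhibitors. Scaled by library totals, 7 members were lower and 1 higher, against 7.84% and 21.4% of all genes, and in the counts as deposited 31 were lower and 0 higher, against 64.8% and 1.24%. WNT9A, FZD8 and FZD10 were the members no longer called by library totals. The share of MAK683 in the counts at the typical gene was 42.5%.

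FZD1, a receptor of a single exon, was the only one of the 32 members with enough counts past 1.5-fold, which 2.96% of all genes passed on the lower side and 3.31% on the higher. Its count was 138 in DMSO and 53 in MAK683, with 60 and 68 input counts, and its change was -0.93 (interval from -1.43 to -0.48), or 1.90-fold lower than the typical gene. WNT16 changed by -0.53 (from -0.73 to -0.33) on 605 and 309 counts. WNT8A, at -0.49, rested on 94 and 49 counts, and its interval from -1.03 to 0.01 reached 0. WNT7A and WNT5A, at -0.42 each, had intervals from -0.50 to -0.34 and from -0.59 to -0.26. The other members called were between -0.45 and -0.40.

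SFRP2 was lower in H3K27me3 counts, at 530 in DMSO and 286 in MAK683, but its input was lower as well, at 125 and 103 counts. Its change was -0.45 (interval from -0.67 to -0.24), while log2 of its level was 1.89 in DMSO and 2.02 in MAK683. With the input ratio subtracted gene by gene, the change of SFRP2 became 0.04, and the call was lost. For WNT16 and FZD10 the input was higher in MAK683 (180 and 244 counts, 36 and 54 counts), and the subtracted changes were -0.75 and -0.76. The 9 members that could not be called had fewer than 100 H3K27me3 counts in both libraries together. They were WNT1, WNT10B, DKK1, DKK4 and the receptors FZD2, FZD4, FZD5, FZD7 and FZD9. FZD4 had 52 counts in DMSO and 17 in MAK683, a change of -1.12 (interval from -2.06 to -0.36), and FZD2 had 5 and 18, a change of 2.10 (from 0.80 to 4.07). FZD5 and FZD7, with 47 and 52 and with 41 and 46 counts, had intervals that held 0. LRP6 had the highest change among the members tested, at 0.29 (interval from 0.08 to 0.51), but 36.7% of its span is free of other genes.

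Genes with more H3K27me3 in DMSO had lower changes across the table, so the members were set beside genes of a like level. The DMSO count enters both values, so that a part of this relation is arithmetic, and it is given as a description. Among all genes at 2 to 4 times the input in DMSO the median change was -0.31, and at the 9 members in that range it was -0.42. Among genes at 0.5 to 1 times the input, the median was 0.05, and 40.8% of the genes were below 0. The 14 members there had a median of -0.10, and 13 of them were below 0. When genes were grouped by their level in MAK683 instead, the 16 members at 0.5 to 1 times the input had a median of -0.10, against 0.13 for all genes. The contrast was not the same at every level. At 1 to 2 times the input in DMSO, 5 members had a median of -0.13 against -0.19 for all genes, and at 2 to 4 times the input in MAK683, 5 members had -0.24 against -0.29. Within bins of 0.25 in the DMSO level, 22 of the 30 members with both values were below the median of their bin. The number was 14 of 17 for the WNT ligands and 3 of 6 for the WNT-binding inhibitors. WNT8A, WNT9A, WNT10A, FZD1 and FZD3 were below the 10th percentile of their bin, and SFRP5 was above the 90th.

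**Figure D2:**
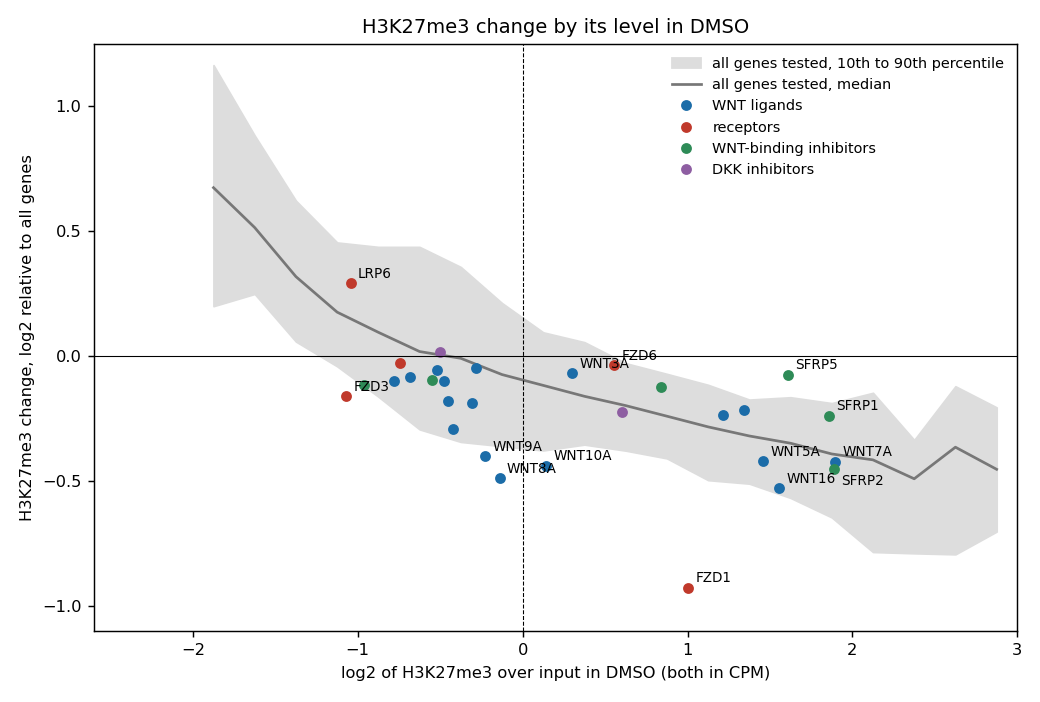
H3K27me3 change relative to all genes (log2) against its level over input in DMSO (log2 of the CPM ratio), for the 30 members with both values, each point a gene colored by role, over the median and the 10th to 90th percentile of all genes. FZD1 lies far below the band at a change of -0.93, and 14 of 17 WNT ligands lie below the median of genes of their level.

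H3K4me3 was above the input at more of the WNT ligands and receptors than of the WNT-binding inhibitors. In DMSO, 9 of the 33 members (WNT4, WNT5A, WNT9A, WNT10B, WNT11, FZD1, FZD5, FZD7 and SFRP5) had at least 2 times the input, against 24.2% of all genes. Above the input were 21 of the 33, against 43.8%, and these were 13 of 18 WNT ligands, 6 of 7 receptors, 1 of 6 WNT-binding inhibitors and 1 of 2 DKK genes. The median level of the members was 0.33 in DMSO and 0.54 in MAK683, and that of all genes -0.25 and -0.12. The same 9 members were at 2 times the input in MAK683, against 22.6% of all genes, and 23 were above the input, against 45.8%.

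The highest H3K4me3 levels were at short receptor genes and DKK1. FZD2 had 1549 H3K4me3 counts over 28 input counts in DMSO, or 42.5 times the input, and DKK1 had 2003 over 50, or 31.2 times. FZD4 was at 21.9 times (714 over 25), but only 25.6% of its span is free of other genes, since PRSS23 overlaps it. FZD5 was at 19.4 times (2303 over 93). A short gene counts its promoter in a larger part of its span than a long one, so these ratios do not compare promoters between genes of unlike length. Among the WNT ligands, WNT11, which acts in kidney and heart development, was at 5.66 times the input and WNT5A at 3.98 times.

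**Figure D3:**
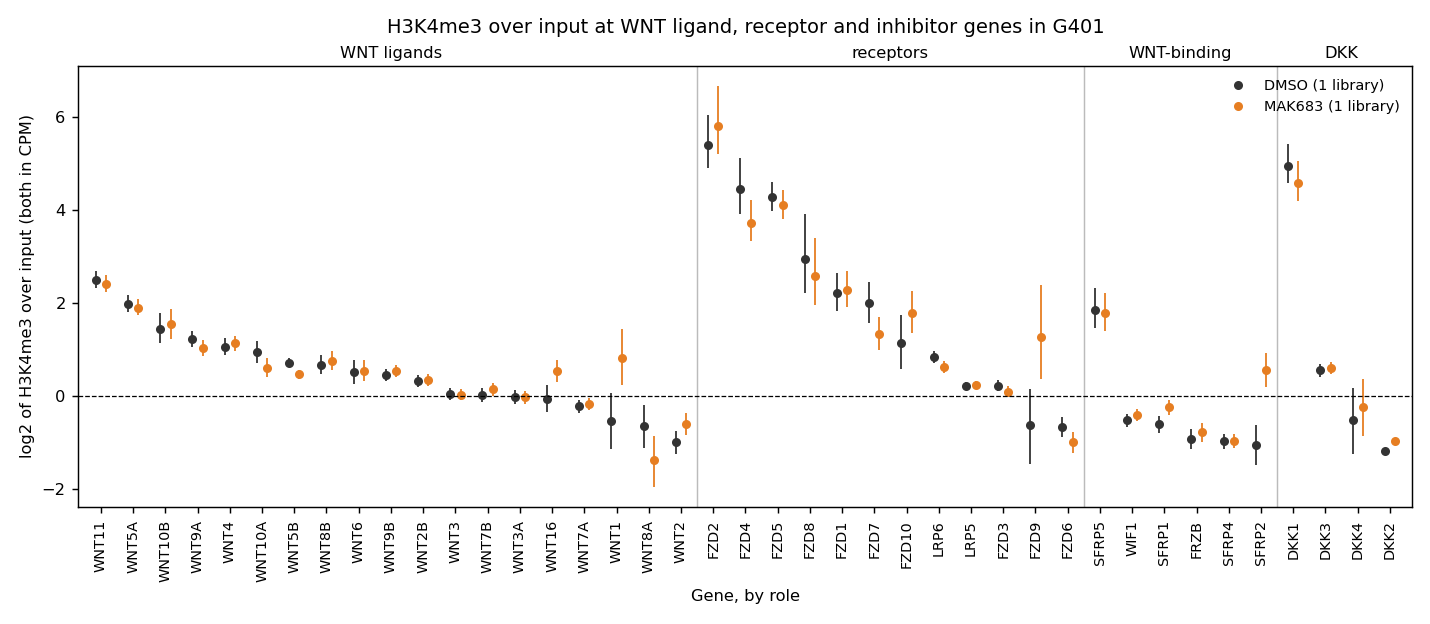
H3K4me3 over input, as log2 of the ratio of the CPM values, for each gene in DMSO and MAK683, with bars for the exact 95% interval of counting error. FZD2, DKK1, FZD4 and FZD5 lie highest in DMSO, at 42.5, 31.2, 21.9 and 19.4 times the input, and SFRP2 moves from 0.484 to 1.47 times.

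Both modifications were above the input in DMSO at 5 of the 33 members, WNT5A, WNT6, WNT10A, FZD1 and SFRP5, against 2.89% of all genes. SFRP5 had 3.05 times the input for H3K27me3 and 3.64 times for H3K4me3, and WNT5A 2.75 and 3.98 times. At WNT5A the H3K4me3 counts were 1427 and 1299, a change of 0.00 (interval from -0.11 to 0.11), beside its lower H3K27me3. At SFRP5 the changes of H3K27me3 and H3K4me3 were -0.07 and -0.02. With both modifications over a whole gene, presence on the same nucleosome or in the same cell cannot be told from these counts.

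H3K4me3 differed between the arms at few members. Of the 39 with enough counts, 5 were called higher (WNT1, WNT16, FZD10, SFRP1 and SFRP2) and 4 lower (WNT8A, FZD2, FZD5 and DKK1), against 13.7% higher and 7.69% lower among all genes. Past 1.5-fold were WNT1, WNT16, FZD10 and SFRP2, which were higher (3.92% of all genes), and WNT8A and DKK1, which were lower (0.984%). The median change of the members was 0.05, and it was -0.08 in the counts as deposited. The 5 of 39 called higher are a share close to that of all genes, while the 4 of 39 past 1.5-fold are a larger share than that of all genes. Among all genes with H3K4me3 below the input in DMSO, the median change was 0.15, and 22.6% of them were below 0. The 12 members in that range, with WNT16, SFRP1 and SFRP2 among them, had a median of 0.16. The DMSO count enters both values here too.

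SFRP2 had the highest H3K4me3 change among the members tested. Its count was 76 in DMSO and 153 in MAK683, and its change was 1.13 (interval from 0.74 to 1.56), or 2.19-fold higher than the typical gene. FZD10 (chromosome 12, 130647004 to 130650285, plus strand) went from 101 to 190 counts, a change of 1.04 (from 0.69 to 1.41). WNT16 (chromosome 7, 120965421 to 120981158, plus strand) went from 219 to 357 counts, a change of 0.83 (from 0.59 to 1.09). All 3 had H3K27me3 of at least 2.94 times the input in DMSO. Their H3K4me3 levels in DMSO were 0.484, 2.19 and 0.963 times the input. The intervals of the 3 changes lay above 0.

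SFRP1 changed by 0.46 (interval from 0.28 to 0.65), with 447 counts in DMSO and 563 in MAK683, and by -0.24 in H3K27me3. WNT1, the canonical ligand of midbrain development, changed by 0.69 on 46 and 68 counts (interval from 0.14 to 1.27). Its input was also unlike between the arms, at 53 and 38 counts. WNT10B, 6.59 kb from WNT1 on the other strand, changed by -0.07 on 362 and 315 counts. The H3K27me3 counts of WNT1 (54 and 44) and WNT10B (47 and 43) were too low for a call.

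Of the 4 members called lower in H3K4me3, DKK1, FZD2 and FZD5 were among the 4 with the highest levels. The other of these, FZD4, changed by 0.01, but its input counts were 25 in DMSO and 48 in MAK683. Its H3K4me3 level was 21.9 times the input in DMSO and 13.3 times in MAK683. DKK1 (chromosome 10, 54074041 to 54077802, plus strand), an inhibitor of LRP5 and LRP6 and itself a WNT target, had 2003 counts in DMSO and 1208 in MAK683, a change of -0.60 (interval from -0.70 to -0.49). FZD2 had 1549 and 1020 counts, a change of -0.47 (from -0.59 to -0.36), with input counts of 28 and 17. Log2 of its level was 5.41 in DMSO and 5.82 in MAK683, and with the input subtracted its change became 0.41. FZD5 had 2303 and 1660 counts, a change of -0.34 (from -0.43 to -0.25). Its 93 and 95 input counts were a change of -0.18 relative to all genes. Log2 of the FZD5 level was 4.28 in DMSO and 4.10 in MAK683, and with the input subtracted the call was lost. Among all genes at 8 times the input or more in DMSO, the median change was -0.23 and 95.3% of the genes were below 0. WNT8A rested on 73 and 40 counts, with an interval from -1.33 to -0.16.

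**Figure D4:**
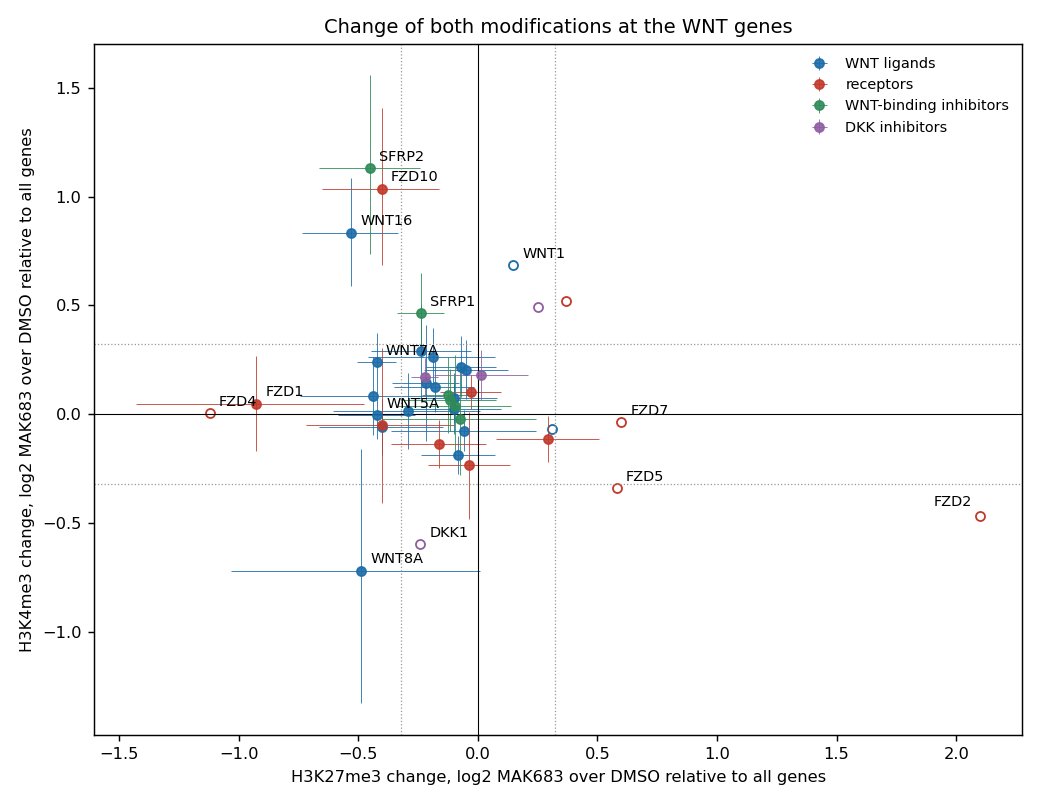
H3K4me3 change against H3K27me3 change for each member (log2, relative to all genes), with bars for the exact 95% interval of counting error, open circles for members with too few counts of either modification for a call and dotted lines at the limits of a call. WNT16, FZD10 and SFRP2 lie at lower H3K27me3 and higher H3K4me3, and FZD1 lies lowest in H3K27me3 among the filled points, with an H3K4me3 change of 0.05.

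A lower H3K27me3 together with a higher H3K4me3 was found at 3 of the 32 members with a value for H3K27me3, namely WNT16, FZD10 and SFRP2, against 3.48% of all genes with both values. They belong to 3 roles, a ligand, a receptor and an inhibitor. By library totals FZD10 was no longer called lower in H3K27me3, and with the input subtracted SFRP2 was not. At the other 7 members with lower H3K27me3, the H3K4me3 change was between -0.72 (WNT8A) and 0.24 (WNT7A). No transcript levels were analysed here.

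The other genes of WNT signaling were taken from a list of 47 genes, of which 39 had enough H3K27me3 counts and 44 enough H3K4me3 counts. H3K27me3 was called lower at 5 of 39 and higher at 4, shares at or under the 13.4% and 14.2% of all genes. The 5 were RSPO1 and RSPO4 (R-spondins, which strengthen WNT signaling), NOTUM and TRABD2B (enzymes that inactivate WNT proteins) and the transcription factor LEF1, and the 4 were PTK7, AXIN2, DVL2 and CTNNBIP1. The intervals of NOTUM (from -0.73 to 0.04), AXIN2 (from -0.01 to 1.02) and DVL2 (from -0.17 to 0.83) included 0, and 28.8% of the AXIN2 span is free of other genes. The median change was -0.22 for the R-spondins and their receptors (8 genes), -0.21 for the secretion factors and modulators (8 genes) and 0.14 for the cytoplasmic and nuclear components (18 genes). H3K4me3 was higher at 9 of 44 and lower at 2, against 13.7% and 7.69% of all genes. SOST, a secreted inhibitor of LRP5 and LRP6, had 203 counts in DMSO and 475 in MAK683, a change of 1.35 (interval from 1.12 to 1.60), and 62 and 30 H3K27me3 counts, too few for a call. GSK3A, a kinase of the β-catenin destruction complex, had 65 and 106 counts, with 51 and 85 input counts, and 14.8% of its span is free of other genes. The genes named here besides these 2 were chosen after their values were seen.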

How the data were processed

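G401 cells were profiled by ChIP-seq of H3K27me3, H3K4me3 and input, with 1 library per arm. The authors trimmed the reads with Trim Galore 0.4.4, mapped them to hg19 by Bowtie2, depleted repeats with Picard 2.23.6 and summed reads over genes in featureCounts. The deposited values are whole-number counts. The authors describe a spike-in normalization by Drosophila chromatin, but its factors are not given with these counts and were not used here. Whether the counts carry this normalization was not tested. The annotation and the counted part of a gene are not given in the sources used here.

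Changes were computed with a pseudocount of 1 count and levels with 0.05 CPM, with calls at a log2 change of 0.32 and at 2 times the input, in Python 3.11.15 with NumPy 2.4.6, pandas 2.3.3 and SciPy 1.17.1. The edgeR 4.0.16 package in R 4.3.3 gave the TMM factors of an alternative and no test. Scripts were tested on simulated data. The smallest level the depth can show, 3 counts, was between 0.141 and 0.225 CPM. Gene coordinates and overlaps are those of GENCODE release 44 on GRCh37, the build of hg19, and all 41 members matched by symbol. Overlaps count any other annotated gene on either strand.

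All members could be named, and of the other WNT pathway genes those past 1.5-fold in either modification. Pathway genes named beyond this rule were chosen after their values were seen. The members and lists were chosen with earlier results of these data known. Expression, accessibility and DNA methylation were not analysed here, and some promoter sequences are not reported here.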

Additional observations from a re-analysis of the deposited data

How the results depend on the processing

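No paired analysis was possible because each arm and antibody has 1 library, and for the same reason no library was left out. The intervals cover counting error only, and depth limits DKK4 and FZD9, which had too few counts of either modification. Of the values of single genes under the alternatives, 744 stayed within their counting interval, 74 moved outside it and 2 reversed, and of the counts and medians over the members 94 stayed, 17 moved and 3 reversed.

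For H3K27me3, library totals gave 1 member higher and a median change of -0.096, and counts as deposited gave 31 members lower and a median of -0.62. A filter of 10 counts in 1 library gave 4 members higher, as did no filter, and a call at 1.5-fold gave 1 member lower. For H3K4me3, the median was -0.083 in the counts as deposited, and 2 members were lower at 1.5-fold. With the input ratio subtracted, 7 members were lower, WNT8A and DKK1 among them, while FZD2 and FZD5 were no longer called lower.

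For levels, H3K27me3 was above the input at 14 members in DMSO and 13 in MAK683. Centred on all genes, the medians became 0.47 in DMSO and 0.11 in MAK683, and 11 members were at 2 times the input in MAK683. H3K4me3 was above the input at 21 members in DMSO and 23 in MAK683. Without a filter, 14 and 15 members were at 2 times the input, and centred on all genes the median in MAK683 became 0.66. With the input subtracted, the H3K27me3 change of SFRP2 was 0.041 and the H3K4me3 change of FZD2 was 0.41, where the input counts of both genes were lower in MAK683. The scaling sets every change, and the cause of a difference between scalings was not tested.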
